A study of Mus musculus with 12 samples.

Results

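The aquaporins are the water channel proteins of cell membranes, and 9 of their genes were chosen by name from the 46403 genes of a count table of mouse kidney RNA: Aqp1, Aqp2, Aqp3, Aqp4, Aqp5, Aqp6, Aqp7, Aqp8 and Aqp11. The choice was by gene family, and it was made with earlier results of these data known. All 9 passed the filter on low counts, as did 23742 genes in all, and Aqp9 and Aqp12 are the other genes of the family in the table. The series title places the study in a mouse model of renal cyst growth, and polyadenylated RNA of the entire right kidney was sequenced in 12 libraries from untreated animals. The Grhl2KO_Myc group (n = 4) is labelled Grhl2 knockout; Myc overexpression and came from HoxB7-Cre; Grhl2flox/+ animals crossed with R26StopFLMYC; Grhl2flox/flox animals. HoxB7-Cre is known to recombine floxed DNA in the ureteric bud and its descendants, among them the collecting ducts. The proximal tubule, vessels and other cells that make up most of a whole kidney are not among these descendants. Grhl2 encodes an epithelial transcription factor. The Myc group (n = 3) is labelled Myc overexpression, and the labels give neither its alleles nor its cross. Its library identifiers carry the tag HET, which the labels do not explain, so whether these mice were heterozygous for a Grhl2 allele is not known here. The wildtype group (n = 5) is R26StopFLMYC; Grhl2 flox/flox, that is, it carries the floxed Grhl2 alleles and the silent MYC transgene with no Cre named. The labels give no age and do not say whether each library is a separate animal, so p-values measure the spread between these libraries, which may be technical.

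The aquaporins present differ between parts of the nephron and collecting duct. Aqp1 lines both membranes of the proximal tubule and the thin descending limb. In the principal cells of the collecting duct, vasopressin acts on its receptor Avpr2 and moves Aqp2 from vesicles to the luminal membrane, while Aqp3 and Aqp4 let water out through the basolateral membrane. Aqp6 sits in vesicles of intercalated cells, the acid-base cells of the same duct. Aqp7 and Aqp11 belong to the proximal tubule, where Aqp7 also carries glycerol and Aqp11 lies inside the cell; mice without Aqp11 form kidney cysts. Aqp5 is the luminal water channel of salivary, tear and airway glands, and Aqp8 is known from liver, pancreas and colon.

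Total counts were 75187006 to 108164810 in Grhl2KO_Myc, 70608817 to 101043826 in Myc and 52973520 to 98713157 in wildtype libraries. Grhl2 itself averaged 21.0 ± 2.78 CPM (the level of a gene relative to its library's total count, scaled by the TMM method) in Grhl2KO_Myc, 29.9 ± 2.71 in Myc and 25.8 ± 2.04 in wildtype kidneys (SD), with adjusted p = 0.044 against Myc and 0.082 against wildtype by edgeR's quasi-likelihood test. Grhl2KO_Myc 3, Grhl2KO_Myc 4 and wildtype 4 stood apart: their proximal tubule score, the mean log2 CPM of 14 marker genes relative to all libraries, was -1.40 to -1.12, against -0.14 to 0.83 in the other 9. Myc 1 held 5.55% of its counts in a set drawn from Yam1, Rn18s-rs5 and Lars2, against 0.160% to 0.581% in the other 11. The set was taken as a mark of ribosomal RNA, though Lars2 encodes a protein. The Y-linked gene Ddx3y was above 10 CPM in Grhl2KO_Myc 1, Grhl2KO_Myc 4, Myc 3 and wildtype 5 and below it in the other 8, so the groups differ in their mix of sexes. In whole-kidney RNA, fewer cells of a type and less RNA per cell cannot be told apart.

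Of the 9 water channel genes, 3 changed between Grhl2KO_Myc and wildtype kidneys: Aqp5 rose, and Aqp4 and Aqp6 fell. These 3 of 9 stand beside 6.67% of all genes tested that were called at an adjusted p under 0.05, of which 4.06% were called higher and 2.61% lower. Between Grhl2KO_Myc and Myc kidneys 3 of 9 were called, Aqp5 higher and Aqp4 and Aqp6 lower, beside 0.842% of all genes, 0.358% higher and 0.484% lower; both comparisons share the Grhl2KO_Myc libraries. Between Myc and wildtype kidneys edgeR called 0 of 9, with 1 of 9 at an unadjusted p under 0.05, and 0.00421% of all genes; DESeq2 called 1 of 9 and limma-voom 0. The median log2 fold change of the 9 genes was -0.26, -0.33 and 0.06 in the 3 comparisons, beside -0.01, 0.00 and 0.00 over all genes. Of all 23742 genes tested, 5212, 3161 and 1098 had an unadjusted p under 0.05 by edgeR in the same 3 comparisons. These counts and the shares called above are also the background for the gene lists and neighbours below. The highly expressed channels Aqp1, Aqp2 and Aqp3 were not among the calls in any of the 3 comparisons.

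**Figure D1:**
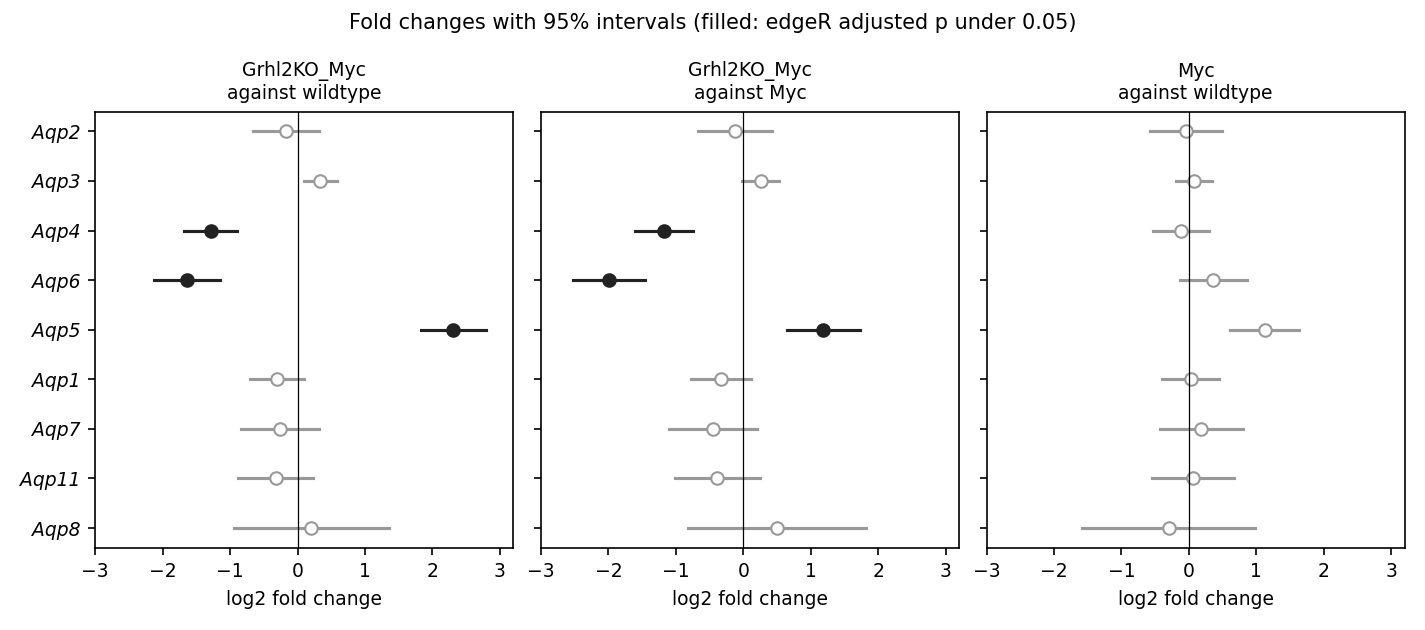
log2 fold change (x axis) of each aquaporin gene (rows) in the 3 comparisons, with 95% intervals; filled points have an edgeR adjusted p under 0.05. Aqp4 and Aqp6 lie left of 0 and Aqp5 right of it in both comparisons of Grhl2KO_Myc, while the intervals of Aqp2 span 0 in all 3.

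Per length of transcript, collecting duct Aqp2 was the most abundant aquaporin of every group, with 232 ± 38.2 RPKM (TMM-scaled CPM per kilobase of gene width) in Grhl2KO_Myc, 253 ± 48.2 in Myc and 261 ± 87.1 in wildtype kidneys. Aqp1 was next with 75.8 ± 14.6 RPKM in Grhl2KO_Myc, 95.4 ± 5.60 in Myc and 93.6 ± 22.1 in wildtype kidneys. Aqp3 followed with 56.1 ± 5.999 RPKM in Grhl2KO_Myc, 47.0 ± 2.47 in Myc and 44.4 ± 7.38 in wildtype kidneys. These 3 genes made up nearly the whole of the summed aquaporin level, which was 382 ± 43.4 RPKM in Grhl2KO_Myc, 422 ± 55.3 in Myc and 424 ± 75.9 in wildtype kidneys. The 3 genes that changed are minor ones. In wildtype kidneys the order from the fourth place down was Aqp11, Aqp4, Aqp6, Aqp7, Aqp5 and Aqp8, where the libraries of Aqp11 and Aqp4 overlapped, as did those of Aqp6 and Aqp7. Myc kidneys had the same order, with no overlap between neighbours. In Grhl2KO_Myc kidneys the order was Aqp11, Aqp4, Aqp5, Aqp7, Aqp6 and Aqp8: Aqp5 stood above Aqp7 and Aqp6, and its 2.97 ± 0.535 RPKM overlapped the 2.98 ± 0.94 RPKM of Aqp4. Aqp1 overlapped Aqp3 there, and Aqp7 overlapped Aqp6.

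**Figure D2:**
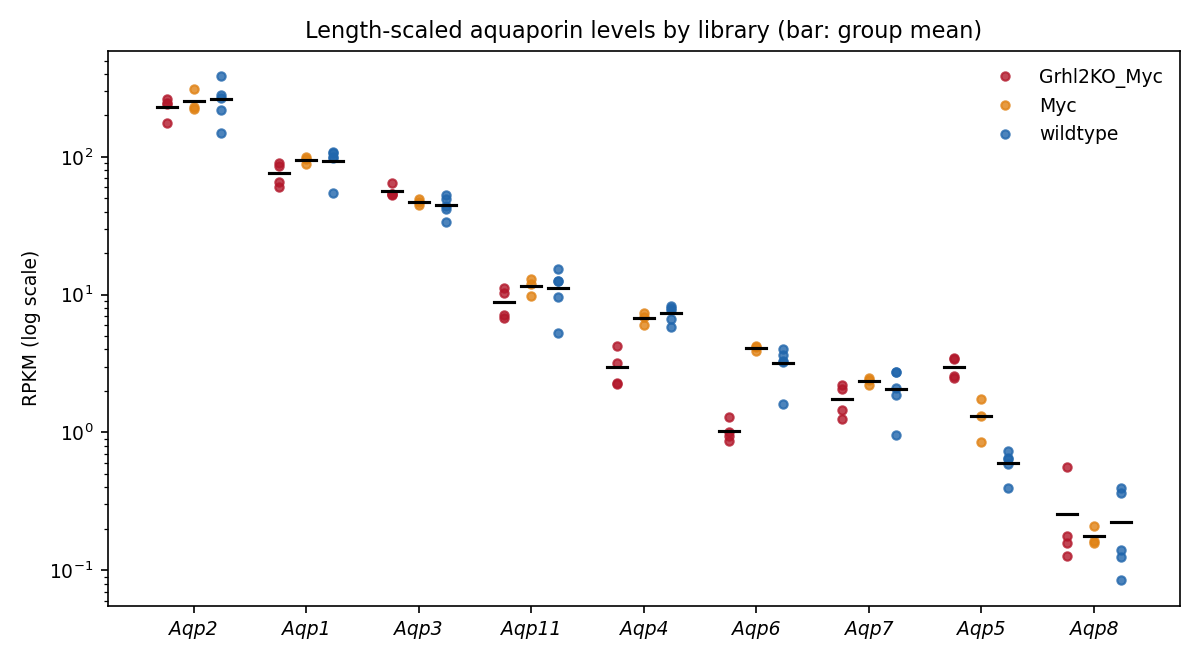
Level of each aquaporin gene in RPKM (log-scaled y axis) in every library, with Grhl2KO_Myc left, Myc in the middle and wildtype right, and a bar at each group mean. Aqp2 leads every group, and Aqp5 lies above Aqp6 in the Grhl2KO_Myc libraries and below it in the others.

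The 2 genes that moved in opposite directions are neighbours. In build mm10, Aqp2 (ENSMUSG00000023013.5, chr15:99579055-99584547), Aqp5 (ENSMUSG00000044217.17, chr15:99590782-99594829) and Aqp6 (ENSMUSG00000043144.6, chr15:99601400-99605477) lie in a row on the plus strand, with 11727 bases between the first pair of annotated starts and 10618 between the second. These starts are those of GENCODE. RefSeq, build GRCm38.p6, places the start of Aqp2 1 base further along, that of Aqp5 246 bases further along at position 99591028, and that of Aqp6 200 bases earlier at position 99601200. To show what stands before the RefSeq starts of this cluster, the adjacent 250 bases for Aqp2 (chr15:99578806-99579055) and for Aqp6 (chr15:99600950-99601199) are printed on the plus strand from RefSeq, with 30 bases for Aqp5 (chr15:99590929-99590958), which lie from 99 to 70 bases before its RefSeq start and inside the gene as GENCODE annotates it. Capitals mark the E-box CACGTG, the letters that Myc-family factors are known to bind.

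Aqp2: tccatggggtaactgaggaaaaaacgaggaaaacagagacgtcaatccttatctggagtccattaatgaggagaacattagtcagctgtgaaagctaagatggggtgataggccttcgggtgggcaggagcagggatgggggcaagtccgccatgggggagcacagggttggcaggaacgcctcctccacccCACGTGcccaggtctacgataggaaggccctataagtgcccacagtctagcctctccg
Aqp5: tgccgcgtgggtCACGTGgcccgggcgggt
Aqp6: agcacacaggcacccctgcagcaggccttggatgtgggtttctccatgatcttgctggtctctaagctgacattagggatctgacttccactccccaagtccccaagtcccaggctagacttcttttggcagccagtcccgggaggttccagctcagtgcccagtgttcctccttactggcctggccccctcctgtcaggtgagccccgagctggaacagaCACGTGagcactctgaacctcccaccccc

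The E-box stands once in each of the 3 promoters, 58 bases before the RefSeq start of Aqp2, 87 before that of Aqp5 and 29 before that of Aqp6. Counted from the GENCODE starts, it stands 57 bases before Aqp2, 159 after the start of Aqp5 and 229 before Aqp6. RefSeq windows of 250 bases before to 50 after the start were found for 8 of the 9 members, with a pair of windows for Aqp7 and none for Aqp4. CACGTG, which reads the same on both strands, was in those of 4 members, the other one being Aqp8 (75 bases before its RefSeq start), and in 7.15% of 32851 windows of the same length. Among the genes that hold it, Aqp5 rose and Aqp6 fell in both comparisons of Grhl2KO_Myc, and Aqp2 and Aqp8 passed no test. Any part of the E-box in these levels was not tested. The grainyhead-type letters AACNGGTT, searched on both strands, were in none of the 9 windows of these 8 members and in 2.09% of all windows; their subset AACCGGTT was in 0.146% of all. The letters TGACG, which begin a cyclic AMP response element, were found on the minus strand of the Aqp2 window, 211 bases before the RefSeq start, and in 20.8% of all windows. The ETS core GGAAG was in 71.4% of all windows, among them those of Aqp1, Aqp2, Aqp3, Aqp5, Aqp6, Aqp8 and Aqp11 and not those of Aqp7.

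Aqp5, the gland-type water channel of the cluster, had 4.12, 4.26, 5.81 and 5.65 CPM in Grhl2KO_Myc kidneys 1 to 4, 1.41, 2.93 and 2.21 CPM in Myc kidneys 1 to 3 and 1.06, 1.08, 0.664, 0.986 and 1.21 CPM in wildtype kidneys 1 to 5. No library of one group reached into the range of another, with Grhl2KO_Myc highest and wildtype lowest. Against wildtype Aqp5 was 4.96-fold higher in Grhl2KO_Myc (log2 fold change 2.31, SE 0.22, adjusted p = 0.00015 by edgeR), and against Myc 2.28-fold higher (1.19, SE 0.25, adjusted p = 0.04998). The call against Myc lies at the threshold and was kept in 2 of the 12 fits that each left out 1 library, with adjusted p of 0.0305 to 0.182, the highest without Myc 1. In Myc kidneys Aqp5 was at 2.18 times the wildtype level (log2 fold change 1.12, 95% interval 0.61 to 1.64), with an unadjusted p of 0.00044 and an adjusted p of 0.48 by edgeR, beside 0.0080 by DESeq2.

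Cells other than those of the collecting duct can hold Aqp5, so marker genes of glands and of the urothelium are set beside it. Of 7 genes of secretory epithelium, 2 passed the filter and neither was called; 4 or 5 were at 0 in each library, with Prol1, Bpifa2, Smr3a and Dcpp1, which encode proteins of saliva and tears, at 0 in all 12, and the summed level was 13.0 to 18.1 CPM in Grhl2KO_Myc, 13.3 to 15.7 in Myc and 10.98 to 16.8 in wildtype kidneys. Nearly all of that sum was Amy1, an amylase gene with 15.0 ± 2.29 CPM in Grhl2KO_Myc and 13.3 ± 2.04 in wildtype kidneys. Of 7 urothelial genes, Krt15, a basal cell keratin gene, rose against wildtype (2.59 ± 0.449 CPM in Grhl2KO_Myc and 0.797 ± 0.37 in wildtype, adjusted p = 0.0028 by edgeR), at 1.29 ± 0.198 CPM in Myc kidneys. The fold changes of all 7 were above 0 for Grhl2KO_Myc against wildtype, with a median log2 fold change of 0.54, and for Myc against wildtype, with a median of 0.42; against Myc 6 of 7 were above 0 in Grhl2KO_Myc, with a median of 0.15. The summed level was 24.5 to 132.6 CPM in Grhl2KO_Myc, 52.7 to 108.5 in Myc and 37.7 to 87.3 in wildtype kidneys. The sums in Grhl2KO_Myc 1 to 3 were 132.6, 101.8 and 122.7 CPM. Grhl2KO_Myc 4, with the lowest urothelial sum of all 12 libraries, had 5.65 CPM of Aqp5, the second highest level. Krt15 in Grhl2KO_Myc 4 was at 2.04 CPM, above the highest Myc level (1.46 in Myc 3) and the highest wildtype level (1.44 in wildtype 4). The part of urothelial cells in the Aqp5 result was not tested.

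Aqp6, the vesicle channel of intercalated cells, had 2.66, 1.77, 1.94 and 2.06 CPM in Grhl2KO_Myc kidneys 1 to 4, 8.55, 7.97 and 8.67 CPM in Myc kidneys 1 to 3 and 8.36, 6.68, 6.85, 3.30 and 7.56 CPM in wildtype kidneys 1 to 5. All 4 Grhl2KO_Myc libraries were below the others, with wildtype 4 the nearest. Aqp6 was 3.98-fold lower than in Myc kidneys (log2 fold change -1.99, SE 0.25, adjusted p = 0.0018) and 3.10-fold lower than in wildtype kidneys (-1.63, SE 0.23, adjusted p = 0.0014). Both calls held in every one of the 23 alternative settings, with log2 fold changes of -2.13 to -1.74 against Myc and of -1.80 to -1.40 against wildtype. Without wildtype 4 and the other 2 libraries low in proximal tubule genes the log2 fold changes were -1.92 against Myc and -1.73 against wildtype.

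Among 12 other genes of intercalated cells, 1 rose and 0 fell between Grhl2KO_Myc and wildtype kidneys, beside 4.06% and 2.61% of all genes. The median log2 fold change was -0.10 against -0.01 over all genes. The riser was Foxi1, the transcription factor gene that specifies these cells, with 35.6 ± 4.94 CPM in Grhl2KO_Myc and 22.9 ± 1.97 in wildtype kidneys (log2 fold change 0.64, adjusted p = 0.026). Its level in Myc kidneys was 41.7 ± 12.96 CPM, above that of wildtype (log2 fold change 0.87, unadjusted p = 0.00015, adjusted p = 0.31), and the log2 fold change of Grhl2KO_Myc against Myc was -0.23 (adjusted p = 0.59). Against Myc kidneys 1 of the 12 fell, Atp6v0d2, a subunit gene of the proton pump, and the median was -0.48. There 2 of the 12 had a fold change above 0, and 7 had an unadjusted p under 0.05 by edgeR, beside 3161 of 23742 genes. Against wildtype 4 of the 12 were above 0, and 5 had an unadjusted p under 0.05, beside 5212 of 23742 genes. The summed level of the list was 283 to 314 CPM in Grhl2KO_Myc, 337 to 407 in Myc and 237 to 335 in wildtype kidneys. In wildtype 4, the library with the lowest sum, Aqp6 was also lowest among the wildtype kidneys; the part of cell numbers in the result was not tested.

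The ratio of the pair turned round. On the RPKM scale Aqp5 over Aqp6 was 1.91, 2.97, 3.69 and 3.38 in Grhl2KO_Myc kidneys 1 to 4, 0.204, 0.453 and 0.315 in Myc kidneys 1 to 3 and 0.157, 0.201, 0.120, 0.369 and 0.198 in wildtype kidneys 1 to 5. Aqp5 was the more abundant of the pair in the 4 Grhl2KO_Myc libraries and the less abundant in the other 8.

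**Figure D3:**
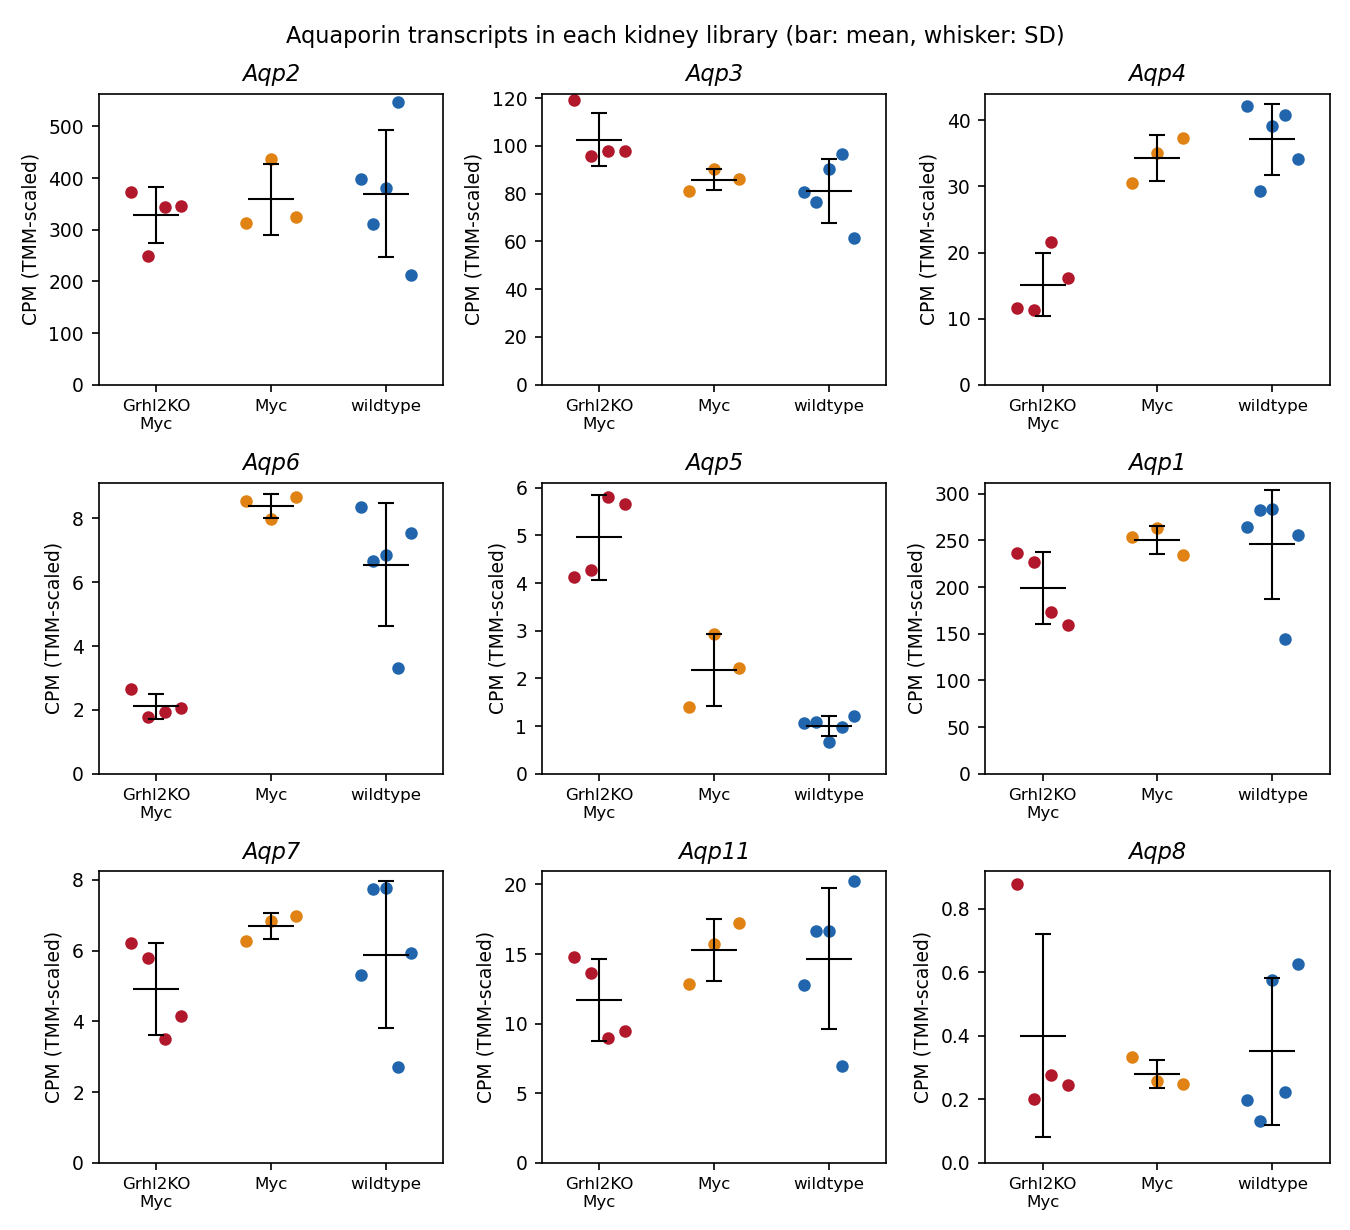
TMM-scaled CPM (y axes from 0) of the 9 aquaporin genes in each library, with points for Grhl2KO_Myc, Myc and wildtype kidneys from left to right, a horizontal bar at the group mean and whiskers of 1 SD. The points of Aqp4 and Aqp6 lie lowest and those of Aqp5 highest in Grhl2KO_Myc, and single libraries stand apart for Aqp1, Aqp3 and Aqp8.

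Aqp2, the vasopressin-regulated channel at the head of the cluster, had 373, 249.8, 345 and 346 CPM in Grhl2KO_Myc kidneys 1 to 4, 314, 437 and 325 CPM in Myc kidneys 1 to 3 and 398, 311, 381, 547 and 212 CPM in wildtype kidneys 1 to 5. The wildtype libraries spanned the full range of both other groups. The log2 fold change was -0.17 against wildtype (95% interval -0.66 to 0.31, adjusted p = 0.70 by edgeR) and -0.13 against Myc (-0.68 to 0.42, adjusted p = 0.86). The sign turned with single libraries: without wildtype 4 the value against wildtype was 0.01.

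The genes around the cluster gave a further comparison. Over all genes tested, 4.06% were called higher and 2.61% lower between Grhl2KO_Myc and wildtype kidneys. Of 11 other protein-coding genes that start within 200 kb of Aqp2, Aqp5 or Aqp6 and passed the filter, 3 rose and 0 fell there. They were Faim2, an inhibitor of Fas-mediated cell death (0.971 ± 0.855 CPM in Grhl2KO_Myc and 0.194 ± 0.108 in wildtype, adjusted p = 0.024 by edgeR), Asic1, an acid-sensing sodium channel (7.58 ± 0.502 CPM in Grhl2KO_Myc and 5.50 ± 0.388 in wildtype, adjusted p = 0.0051), and Cers5, a ceramide synthase (66.8 ± 2.77 CPM in Grhl2KO_Myc and 57.2 ± 3.52 in wildtype, adjusted p = 0.024). Faim2 rested on few reads, with 28, 168, 58 and 73 counts in Grhl2KO_Myc kidneys 1 to 4 and 5, 17, 16, 26 and 6 counts in wildtype kidneys 1 to 5. Racgap1, the nearest gene downstream of Aqp6, had a log2 fold change of -0.18 (adjusted p = 0.26). Between Grhl2KO_Myc and Myc kidneys edgeR called 0 of the 11, with 3 at an unadjusted p under 0.05, and between Myc and wildtype kidneys 0 and 0. Aqp6 was the only gene in the window that fell, in either comparison of Grhl2KO_Myc.

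**Figure D4:**
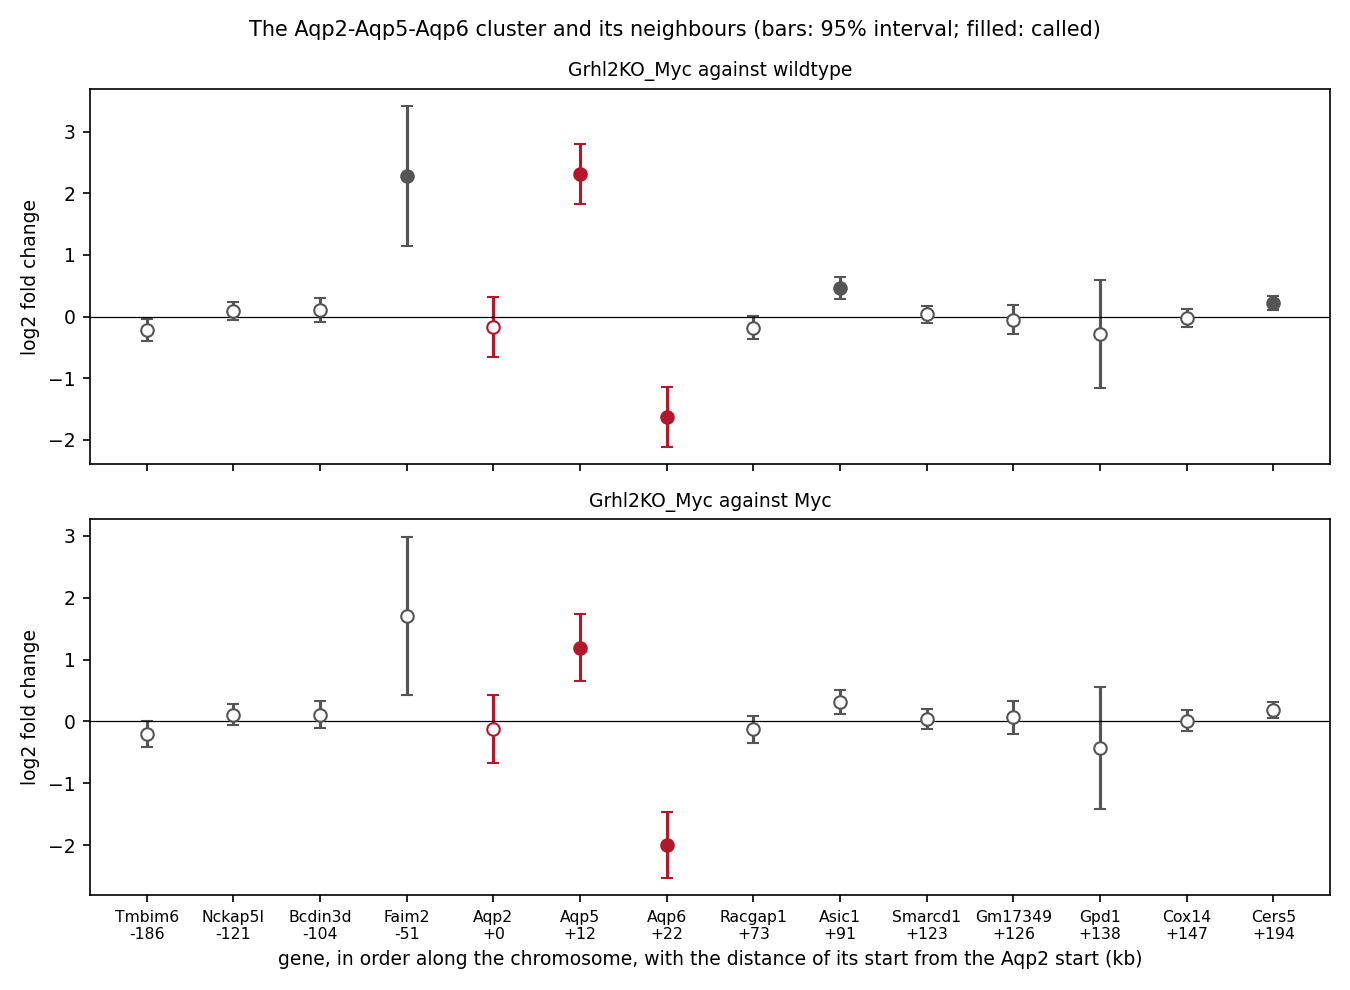
log2 fold change (y axis) with 95% intervals of the Aqp2, Aqp5 and Aqp6 genes (red) and their protein-coding neighbours (grey), in chromosome order with the distance of each start from that of Aqp2 in kb; filled points were called. Aqp5 lies above 0 and Aqp6 below it in both panels, with Aqp2 near 0 beside them.

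Of the channels that let water out of principal cells, Aqp4 fell against wildtype and Myc, and Aqp3 was not called in the main fit. Aqp4 (ENSMUSG00000024411.10, chr18:15389496-15410982, minus strand) had 11.6, 11.4, 21.6 and 16.1 CPM in Grhl2KO_Myc kidneys 1 to 4, 30.5, 35.0 and 37.4 CPM in Myc kidneys 1 to 3 and 42.2, 29.3, 39.1, 40.8 and 34.1 CPM in wildtype kidneys 1 to 5. The 4 Grhl2KO_Myc libraries lay below all others, and the Myc and wildtype libraries overlapped. Aqp4 was 2.44-fold lower than in wildtype (log2 fold change -1.29, SE 0.18, adjusted p = 0.0016 by edgeR) and 2.26-fold lower than in Myc kidneys (-1.18, SE 0.20, adjusted p = 0.017). The call against Myc was lost without Grhl2KO_Myc 4 (adjusted p = 0.053), Myc 2 (0.081) or Myc 3 (0.069), at log2 fold changes of -1.20, -1.16 and -1.12. The levels in Grhl2KO_Myc 3 and 4, the libraries low in proximal tubule genes, were above those in Grhl2KO_Myc 1 and 2, and without the 3 such libraries the log2 fold changes were -1.66 against wildtype and -1.58 against Myc. An antisense gene model, AC133525.2, is annotated over Aqp4, and the kit does not mark strand.

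Aqp3 (chr4:41092722-41098183, minus strand), the basolateral channel that also passes glycerol, had 119, 95.9, 97.9 and 97.8 CPM in Grhl2KO_Myc kidneys 1 to 4, 81.3, 90.3 and 86.1 CPM in Myc kidneys 1 to 3 and 80.7, 76.7, 90.3, 96.6 and 61.5 CPM in wildtype kidneys 1 to 5. Grhl2KO_Myc libraries 2 to 4 lay close together, and wildtype 4 reached them. The log2 fold change against wildtype was 0.34 (95% interval 0.09 to 0.58) with an adjusted p of 0.096 by edgeR, and passed the threshold by DESeq2 (0.045) or without wildtype 4 (0.0225). Against Myc it was 0.26 (adjusted p = 0.42). As a share of the summed aquaporin level, Aqp3 took 14.7% ± 0.74 in Grhl2KO_Myc, 11.2% ± 0.925 in Myc and 10.5% ± 0.457 in wildtype kidneys, with libraries of 14.1% to 15.7% in Grhl2KO_Myc, 10.2% to 11.9% in Myc and 9.79% to 10.9% in wildtype kidneys. Aqp3 over Aqp2 on the RPKM scale was 0.219 to 0.297 in Grhl2KO_Myc, 0.160 to 0.205 in Myc and 0.137 to 0.225 in wildtype kidneys, with wildtype 5 inside the Grhl2KO_Myc range.

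Aqp4 over Aqp2 was 0.0087 to 0.0174 in Grhl2KO_Myc, 0.0223 to 0.0320 in Myc and 0.0208 to 0.0448 in wildtype kidneys. The ratio was lower in each Grhl2KO_Myc library than in every other library. The part of cell numbers in these whole-kidney ratios was not tested. Over all genes, 2.61% were called lower against wildtype and 0.484% against Myc. Of 12 further marker genes of principal cells, 2 fell and 0 rose against wildtype, with a median log2 fold change of -0.11. Against Myc 2 fell (median -0.20). By edgeR 7 of the 12 had an unadjusted p under 0.05 against wildtype and 6 against Myc, beside 5212 and 3161 of 23742 genes. Fold changes were above 0 for 6 of the 12 against wildtype and for 4 against Myc. The summed level of the list was 1661 to 1722 CPM in Grhl2KO_Myc, 1799 to 1962 in Myc and 1318 to 1946 in wildtype kidneys. Hsd11b2, which shields the mineralocorticoid receptor from cortisol-like hormones, was at 96.8 ± 4.78 CPM in Grhl2KO_Myc and 57.8 ± 18.8 in wildtype kidneys (adjusted p = 0.066).

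The genes that act on Aqp2 were then described by their roles. Avpr2, the vasopressin receptor that starts the signal, had 8.09, 5.85, 8.83 and 7.02 CPM in Grhl2KO_Myc kidneys 1 to 4, 14.9, 15.1 and 14.7 CPM in Myc kidneys 1 to 3 and 14.2, 14.3, 13.8, 14.3 and 14.5 CPM in wildtype kidneys 1 to 5. Every Grhl2KO_Myc library was below every other one (adjusted p = 0.00029 against wildtype and 0.0009 against Myc by edgeR), at Aqp2 levels that overlapped between the groups. Among 19 genes of vasopressin signalling 3 fell and 0 rose against wildtype, with a median log2 fold change of -0.01. Besides Avpr2 these were the endothelin receptor gene Ednrb (log2 fold change -0.39) and the kinase anchor gene Akap13 (-0.22). Against Myc only Avpr2 fell. Over all genes, 2.61% were called lower against wildtype and 0.484% against Myc.

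Elf5, an ETS factor gene of principal cells known to act on the mouse Aqp2 promoter, had 5.15, 4.94, 6.76 and 6.13 CPM in Grhl2KO_Myc kidneys 1 to 4, 22.4, 26.9 and 27.1 CPM in Myc kidneys 1 to 3 and 22.2, 23.4, 21.2, 19.6 and 21.1 CPM in wildtype kidneys 1 to 5. It fell against both (log2 fold change -1.90 and adjusted p = 3.5e-06 against wildtype, -2.14 and 4.5e-06 against Myc). Of 12 transcription factor genes linked to Aqp2, 2 rose and 1 fell against wildtype, beside 4.06% and 2.61% of all genes. The risers were Ehf, another ETS factor (72.0 ± 6.37 CPM in Grhl2KO_Myc, 53.0 ± 7.22 in Myc and 42.7 ± 2.38 in wildtype, adjusted p against wildtype = 0.00031), and Gata2, a zinc finger factor that acts in the collecting duct (73.5 ± 10.2 CPM in Grhl2KO_Myc, 59.7 ± 8.10 in Myc and 46.9 ± 3.66 in wildtype, adjusted p against wildtype = 0.0028). The list's median log2 fold change was 0.15, and against Myc 1 of the 12, Elf5, was called. By edgeR 7 of the 12 had an unadjusted p under 0.05 against wildtype and 5 against Myc.

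Of 19 genes that carry or recycle Aqp2 vesicles, 1 rose and 2 fell against wildtype, beside 4.06% and 2.61% of all genes. Hspa8, a chaperone that binds Aqp2, was at 2116 ± 92.6 CPM in Grhl2KO_Myc and 1590 ± 169.9 in wildtype kidneys (adjusted p = 0.0099). The motor gene Myo5b (87.0 ± 2.18 CPM in Grhl2KO_Myc and 112.7 ± 15.5 in wildtype, adjusted p = 0.032) and its partner Rab11fip2 (30.1 ± 10.7 CPM in Grhl2KO_Myc and 49.5 ± 4.66 in wildtype, adjusted p = 0.041) fell. Against Myc 0 of the 19 were called by edgeR and 4 had an unadjusted p under 0.05. Among 11 genes of the osmotic response and of urea transport, 2 fell and 0 rose against wildtype (median -0.40): Slc14a2, the urea transporter of the inner medulla (12.2 ± 1.11 CPM in Grhl2KO_Myc and 17.8 ± 2.62 in wildtype, adjusted p = 0.022), and Akr1b3, the aldose reductase that makes sorbitol (125.8 ± 10.6 CPM in Grhl2KO_Myc and 167.5 ± 26.7 in wildtype, adjusted p = 0.040). Against Myc Akr1b3 fell again (adjusted p = 0.035). Of these 11 genes, 7 had an unadjusted p under 0.05 by edgeR against wildtype and 6 against Myc. Fold changes above 0 were found for 0 of the 11 against wildtype and 1 against Myc. Over the 137 genes of all 14 lists tested, Myc against wildtype gave 0 calls by edgeR, with 15 at an unadjusted p under 0.05. Over all 23742 genes tested, 1098 had an unadjusted p under 0.05 in that comparison.

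The channels of the proximal nephron, Aqp1, Aqp7 and Aqp11, passed no test between groups in the main fit. Their lowest levels were those of the 3 libraries low in proximal tubule markers. No correlation with the proximal tubule score was computed, and the part of cell numbers in these levels was not tested. Aqp1 (chr6:55336432-55348555, plus strand) had 237, 227, 173 and 159.8 CPM in Grhl2KO_Myc kidneys 1 to 4, 253, 264 and 235 CPM in Myc kidneys 1 to 3 and 264, 282, 283, 144 and 256 CPM in wildtype kidneys 1 to 5. Its 3 lowest values, 144 to 173 CPM, were those of wildtype 4, Grhl2KO_Myc 4 and Grhl2KO_Myc 3, and the other 9 libraries had 227 to 283. The log2 fold change was -0.30 against wildtype (95% interval -0.70 to 0.09, adjusted p = 0.35 by edgeR) and -0.33 against Myc (-0.78 to 0.11, adjusted p = 0.52). Without wildtype 4 the value against wildtype was -0.45 with an adjusted p of 0.0204, past the threshold.

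Aqp1 is also made by endothelium and red cells. Of 7 endothelial genes, 3 fell against wildtype, beside 2.61% of all genes. They were the receptor genes Tek (log2 fold change -0.30), Kdr (-0.27) and Flt1 (-0.27). Of the 7, 6 had an unadjusted p under 0.05 by edgeR against wildtype, and 0 had a fold change above 0. The endothelial list summed to 630 to 659 CPM in Grhl2KO_Myc, 649.6 to 692 in Myc and 697 to 762 in wildtype kidneys. Of 6 red cell genes 0 were called by edgeR in that comparison, with 1 at an unadjusted p under 0.05, and the sums were 642 to 1122 CPM in Grhl2KO_Myc, 904 to 1144 in Myc and 916 to 1793 in wildtype kidneys. Of 8 genes of the thin descending limb 2 fell against wildtype, Slc14a2 and Akr1b3, the same genes that fell in the osmotic and urea list. Of the 8, 3 had a fold change above 0, and the median log2 fold change was -0.24. The sums were 309.95 to 349 CPM in Grhl2KO_Myc, 394 to 433 in Myc and 345 to 438 in wildtype kidneys. The part of these cells in the Aqp1 level was not tested.

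Aqp7 (chr4:41033074-41048139, minus strand), the glycerol channel, has its start 50044 bases from that of Aqp3 on the same strand. It had 6.22, 5.796, 3.51 and 4.14 CPM in Grhl2KO_Myc kidneys 1 to 4, 6.28, 6.84 and 6.96 CPM in Myc kidneys 1 to 3 and 5.30, 7.74, 7.76, 2.71 and 5.93 CPM in wildtype kidneys 1 to 5. The 3 libraries low in proximal tubule genes held its 3 lowest levels, 2.71 to 4.14 CPM against 5.30 to 7.76 in the other 9. The log2 fold change was -0.26 (adjusted p = 0.61 by edgeR) against wildtype and -0.45 (0.55) against Myc. With the proximal tubule score in the fit the value against wildtype was 0.14. Of 9 genes that handle glycerol or hydrogen peroxide 0 were called in either comparison of Grhl2KO_Myc, with 1 at an unadjusted p under 0.05 in each.

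Aqp11 (chr7:97724006-97738289, minus strand), the intracellular channel of the proximal tubule, had 14.8, 13.6, 8.99 and 9.44 CPM in Grhl2KO_Myc kidneys 1 to 4, 12.8, 15.7 and 17.2 CPM in Myc kidneys 1 to 3 and 12.8, 16.7, 16.7, 6.96 and 20.3 CPM in wildtype kidneys 1 to 5. Again the 3 lowest levels, 6.96 to 9.44 CPM, were in the libraries low in proximal tubule genes, and the others had 12.8 to 20.3. The log2 fold change was -0.33 against wildtype (95% interval -0.89 to 0.24, adjusted p = 0.499 by edgeR) and 0.08 with the proximal tubule score in the fit. Of the 14 proximal tubule genes 0 were called against wildtype and 2 had an unadjusted p under 0.05, with a median log2 fold change of -0.53. Over all 23742 genes tested, 5212 had an unadjusted p under 0.05 in that comparison.

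**Figure D5:**
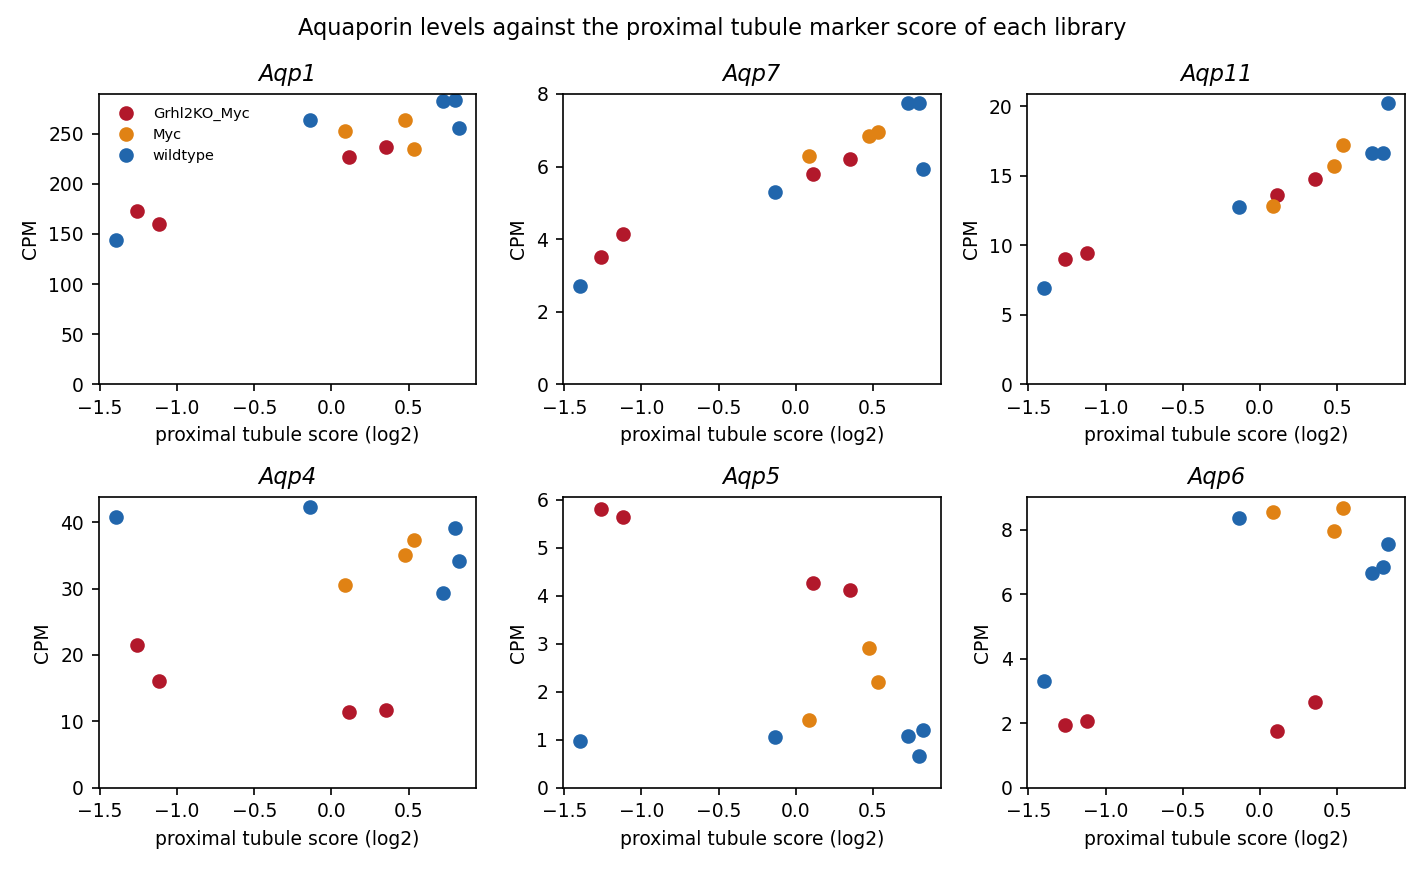
CPM of 6 aquaporin genes (y axes from 0) against the proximal tubule score of each library (x axis, mean log2 CPM of 14 markers relative to all libraries), 1 point a library, coloured by group. The 3 libraries with scores of -1.40 to -1.12 hold the lowest levels of Aqp1, Aqp7 and Aqp11, while Aqp4, Aqp5 and Aqp6 separate the Grhl2KO_Myc libraries at high and low scores.

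Aqp8 (chr7:123462291-123468004, plus strand) was the least abundant member, with 0.878, 0.200, 0.277 and 0.246 CPM in Grhl2KO_Myc kidneys 1 to 4, 0.332, 0.258 and 0.249 CPM in Myc kidneys 1 to 3 and 0.198, 0.133, 0.577, 0.222 and 0.625 CPM in wildtype kidneys 1 to 5. One Grhl2KO_Myc library stood above the rest and the groups overlapped. The log2 fold change was 0.20 against wildtype (95% interval -0.95 to 1.35, adjusted p = 0.86 by edgeR) and -0.51 without Grhl2KO_Myc 1. Aqp9, a liver and white cell channel that is no member of the set, was at 0.414 ± 0.150 CPM in Grhl2KO_Myc, 0.111 ± 0.068 in Myc and 0.267 ± 0.295 in wildtype kidneys (adjusted p = 0.60 against wildtype). Aqp12, a pancreatic gene, had 3 counts in 1 library and 0 in 11, where a count of 0 allows up to 0.0274 to 0.0568 CPM, for counting error only.

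For each of the 3 called members, the genes with the most similar pattern were taken as those with the highest Pearson correlation of log2 CPM over the 12 libraries, among 14036 protein-coding genes of at least 1 CPM. All share the same libraries and groups, so the values are a description. For Aqp4 they were Dsp, the desmosome gene desmoplakin (r = 0.96), Ctdspl, a phosphatase gene (0.95), and Zfyve1, a zinc finger protein gene (0.94). For Aqp5 they were Ccdc116, Noc2l and Ydjc, each at 0.98, of which Noc2l encodes a nucleolar protein. For Aqp6 they were Myo3b, an unconventional myosin gene (0.98), Srcin1, an inhibitor of Src kinase (0.97), and Muc20, a mucin gene (0.97).

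With the group means taken out the correlations were lower, 0.68 to 0.85 for the genes near Aqp4, 0.74 to 0.77 for those near Aqp5 and 0.80 to 0.83 for those near Aqp6. Ccdc116 had 6.06 ± 0.84 CPM in Grhl2KO_Myc, 3.11 ± 0.877 in Myc and 1.39 ± 0.168 in wildtype kidneys, the same order of groups as Aqp5. Muc20 had 8.62 ± 0.629 CPM in Grhl2KO_Myc, 25.1 ± 3.23 in Myc and 23.8 ± 5.73 in wildtype kidneys, with Myc and wildtype close together as for Aqp6.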

How the data were processed

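Polyadenylated RNA of the entire right kidney was sequenced after library preparation with the TruSeq RNA Sample Prep Kit v2, per the labels' protocols, a kit that keeps no strand information. HISAT2 aligned the reads to mm10, per the submitters' processing notes (counting program and annotation: not given in the sources used here). Deposited was 1 table with the authors' raw counts per gene, not normalized, with a gene width column. Total counts lay between 52973520 and 108164810; the number of reads limits the precision of low genes. Of the deposited columns 0 belonged to other samples.

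Counts were tested with edgeR 4.0.16 in R 4.3.3 (TMM scaling, its default expression filter, quasi-likelihood F test, all 12 libraries in 1 fit with a coefficient per group) and Benjamini-Hochberg adjustment over 23742 genes, at 0.05. RPKM used the deposited width. Standard errors were derived from the fold change and its test statistic. Scripts were tested on simulated data. Replicates differed by more than sampling noise (smallest chi-square per degree of freedom 13.4), so each library counted as 1. Coordinates are from GENCODE M21, which matched 90.6% of the symbols; the authors' annotation may differ. Alternatives were other scalings and filters, DESeq2 1.42.0, limma-voom (limma 3.58.1), only the groups compared, a replicate block, a term for sex, the proximal tubule score as covariate, and libraries left out.

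The members, the gene lists and the naming rule were chosen with earlier results of these data known. Named were all family genes, Grhl2, protein-coding genes within 200 kb of the Aqp2 cluster, the 3 genes of each list with the smallest adjusted p against wildtype (a selection is printed), Elf5, Avpr2 and Slc14a2, and the 3 genes most like each called member. Atp6v0d2 was named after its value was seen, and of the fat cell list, 5 of 6 genes were tested and 0 called by edgeR against wildtype or Myc, with 0 at an unadjusted p under 0.05.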

Additional observations from a re-analysis of the deposited data

Results flagged for a closer look

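In 18 groups of 4 or 5 libraries (9 genes in Grhl2KO_Myc and in wildtype kidneys), 3 held a library far from the others by Dixon's test; chance gives about 1 in 20. Aqp3 was at 119 CPM in Grhl2KO_Myc 1 and at 95.9 to 97.88 in the other Grhl2KO_Myc kidneys. Aqp8 was at 0.8777 CPM in the same library and at 0.1999 to 0.2775 in the others. Aqp1 was at 143.9 CPM in wildtype 4, one of the libraries low in proximal tubule genes, and at 255.6 to 283.1 in the other wildtype kidneys.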

How the results depend on the processing

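Counts of aquaporins called were 3, 3 and 0 for Grhl2KO_Myc against wildtype, Grhl2KO_Myc against Myc and Myc against wildtype. With 1 library left out they were 3 to 5, 1 to 3 and 0: 5 without wildtype 4, which added Aqp1 and Aqp3, and 1 without Grhl2KO_Myc 4, Myc 2 or Myc 3. DESeq2 gave 1 for Myc against wildtype. Aqp4, Aqp5 and Aqp6 against wildtype kept their direction and call in all 23 alternatives, as did Aqp6 against Myc. Aqp5 against Myc kept its direction in all 23 and its call in 8. Its adjusted p was 0.0704 with only the groups compared, 0.0819 with a term for sex, 0.0853 with the proximal tubule score and 0.133 without the 3 libraries low in proximal tubule genes. Same-numbered libraries did not deviate together (r from -0.11 to 0.23), so the numbers were not taken as pairs; with a replicate block 3, 2 and 0 were called, Aqp5 against Myc being lost. Over all genes the calls were 750 to 3778 (1584 as reported), 70 to 777 (200) and 0 to 44 (1) across the alternatives. All other changes of sign were in uncalled genes; the cause was not tested. Against wildtype they were Aqp8 once sex entered the fit (-0.0877) and, with the proximal tubule score, Aqp7 (0.1418) and Aqp11 (0.0842); the score also turned Aqp11 against Myc (0.0653) and, for Myc against wildtype, Aqp1 (-0.0092) and Aqp2 (0.0544). Also for Myc against wildtype, limma-voom turned Aqp2 (0.0114), the replicate block Aqp1 (-0.081), and leaving out the 3 libraries turned Aqp1 (-0.1161), Aqp2 (0.1386), Aqp7 (-0.0014) and Aqp11 (-0.1214). Leaving out single libraries gave -0.5138 to 0.4954 for Aqp8 and -0.3258 to 0.0133 for Aqp2 against wildtype, and -0.2128 to 0.7165 for Aqp8 and -0.2179 to 0.0394 for Aqp2 against Myc. For Myc against wildtype the ranges were -0.1151 to 0.0813 (Aqp1), -0.2101 to 0.1408 (Aqp2), -0.0049 to 0.1519 (Aqp3), -3e-04 to 0.3022 (Aqp7) and -0.1204 to 0.2002 (Aqp11). Depth limits Aqp8, at well under 1 CPM.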
